A study of Mus musculus with 12 samples.

Results

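In mammary tumors treated with retinoid X receptor (RXR) agonists, 8 genes were followed: 7 that encode enzymes between acetyl-CoA and squalene (Acat2, Hmgcs1, Pmvk, Mvd, Idi1, Fdps and Fdft1) and Insig1, which encodes a sterol-regulated protein of the endoplasmic reticulum. They were chosen by gene name with earlier results of these data known. That all 8 are among the 1589 genes of the deposited V-125 table, and their shared direction there, are therefore not independent findings. Of the 8, 5 (Insig1, Acat2, Hmgcs1, Idi1 and Fdps) are among the 1784 genes of the deposited bexarotene table. The study sequenced poly(A) RNA of 12 mammary tumors that arose in MMTV-neu mice, 4 on a control diet, 4 on V-125 and 4 on bexarotene, each agonist at 100 mg per kg of diet for 10 days. Powdered chow with ethanol and coconut oil was the vehicle in all 3 groups, so the controls received it too. In this model the mouse mammary tumor virus promoter drives the Neu (HER2) transgene in the mammary epithelium, and mice were assigned to the diets once their tumors had grown to a set diameter. The ages of the mice are not given in the sources used here. Both agonists are rexinoids, which bind RXR, a nuclear receptor that pairs with other nuclear receptors on DNA.

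The mevalonate pathway builds mevalonate from acetyl-CoA and converts it to isoprenoid units that are joined into farnesyl diphosphate. Squalene synthase commits farnesyl diphosphate to sterols, while other enzymes use it for ubiquinone, dolichol and the lipid anchors of small GTPases. Most genes of the pathway are transcribed under SREBP2, a transcription factor held in the endoplasmic reticulum when sterols are plentiful. INSIG1 is part of that hold, and its own gene is a target of SREBP, which makes it a feedback arm of the pathway.

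Each value below is a normalized count, the reads of a gene divided by 1 size factor per tumor, unless FPKM (reads scaled to the length of the gene and to the depth of the tumor's library) is named. The reads assigned to genes numbered from 15571690 to 22574865 in a tumor. Per-tumor values were used for the 4 V-125 and 4 control tumors, and for bexarotene the authors' group means. Neither table goes past an unadjusted p-value of 0.05 in the authors' comparison, so every listed gene had already been selected on the difference between groups. Shares over all listed genes are therefore given beside the counts for the 8 genes. These shares take in genes lower with the agonist as well as higher ones. In bulk tumor RNA, fewer cells of a type and less RNA per cell cannot be told apart. The epithelial markers Epcam (28485 to 53468) and Cdh1 (4565 to 9150) were read in all 8 tumors.

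All 8 genes were higher in mean in the V-125-treated tumors, by 1.47-fold for Hmgcs1 to 3.30-fold for Insig1, with a median of 1.78-fold. For comparison, 51.4% of the 1589 listed genes were higher in mean with V-125, and the median among those was 1.81-fold. The V-125 mean was over 1.5 times the control mean for 7 of the 8 genes, against 37.7% of all listed genes. These were 599 of the 817 listed genes higher in mean. The groups did not overlap for Insig1 and Fdft1, 2 of 8, against 21.1% of all listed genes whose 4 V-125 tumors all lay above the 4 controls. That share is 335 of the same 817 genes. For the other 6 genes at least 1 V-125 tumor lay within the control range. In the test across genes (edgeR), none of the 8 had an adjusted p-value under 0.05, as described below.

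**Figure D1:**
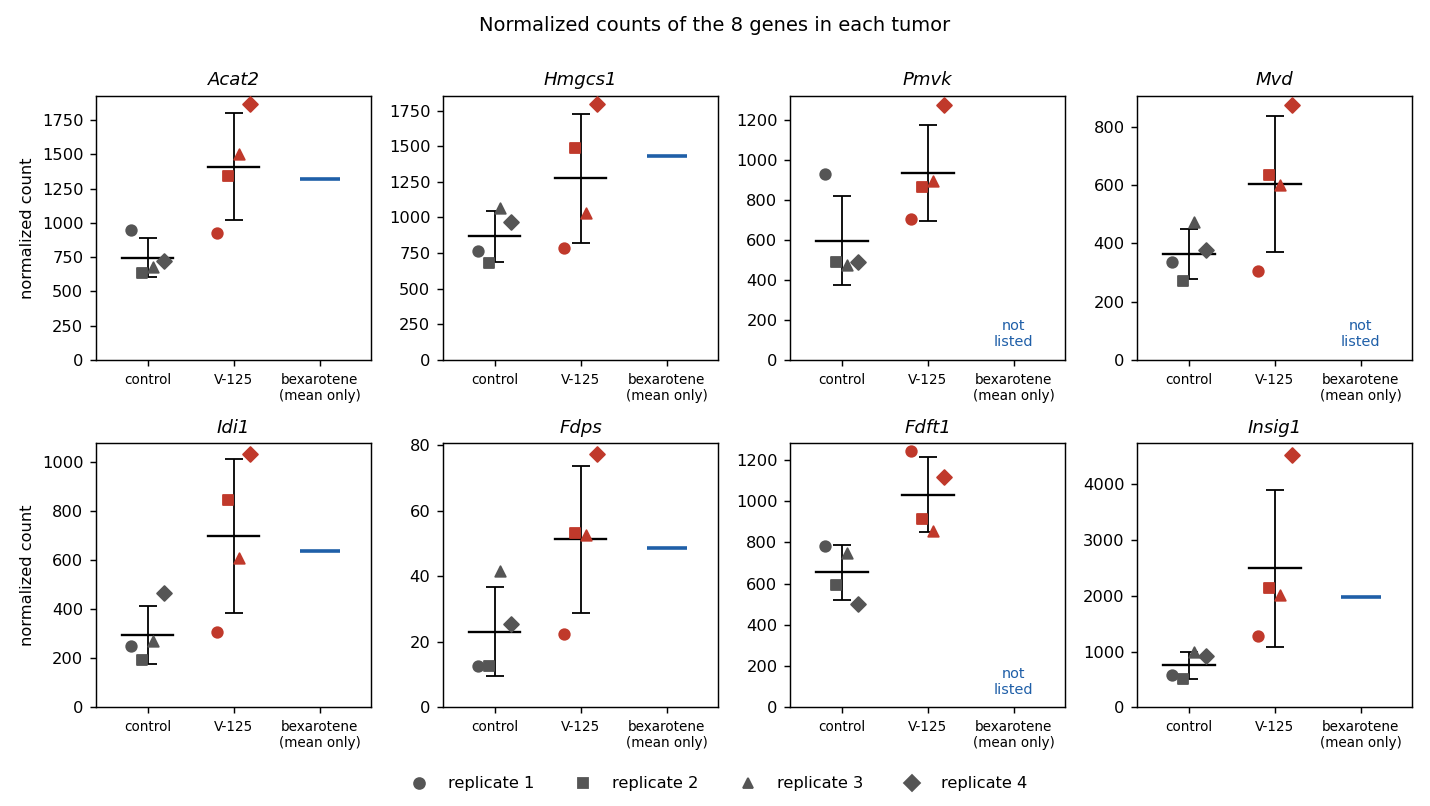
Normalized count of each of the 8 genes (y axis, from 0) in control tumors (grey) and V-125-treated tumors (red), with the marker shape giving the replicate number, and in the bexarotene group as the authors' mean (blue line, no spread). Horizontal black lines are group means and bars are SD over n = 4 tumors; V-125 replicate 4 is the highest tumor for all genes but Fdft1, and the groups are separate only for Insig1 and Fdft1.

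Insig1 (ENSMUSG00000045294; GRCm38 chr5:28071363-28078662, plus strand, 5 exons in its coding transcript) showed the widest difference of the 8. The V-125 tumors, in the order of their replicate numbers here and below, had normalized counts of 1287, 2142, 2011 and 4531, and the control tumors had 573, 517, 999.9 and 928. Every V-125 tumor lay above every control tumor. The means were 2493 ± 1410 (SD, n = 4) and 754 ± 245 (SD, n = 4), a 3.30-fold difference (two-sided exact permutation test, p = 0.0286, the smallest that 4 against 4 can give). The coefficient of variation was 56.6% among V-125 tumors and 32.5% among controls. Leaving out V-125 replicate 4, which alone was 6.01 times the control mean, lowered the fitted log2 fold change from 1.72 to 1.26.

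The 250 bases before the RefSeq start of Insig1 (GRCm38, chr5:28071162-28071411, plus strand) are shown because this gene differed most, with sequence matches in capitals. The letters searched, on both strands, were TCACNCCAC (a sterol regulatory element), CCAAT (NF-Y), GGGCGG (Sp1), CACGTG (an E-box) and AGGTCA (a nuclear receptor half-site).
Insig1: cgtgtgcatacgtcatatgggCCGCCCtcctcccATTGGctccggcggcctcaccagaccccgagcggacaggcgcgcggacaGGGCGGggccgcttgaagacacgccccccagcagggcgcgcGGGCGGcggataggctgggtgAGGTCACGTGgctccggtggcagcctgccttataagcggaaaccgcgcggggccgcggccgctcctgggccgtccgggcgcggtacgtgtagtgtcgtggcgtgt
The capitals mark, in order, an Sp1 box, an NF-Y box, another 2 Sp1 boxes, and a half-site whose last letters overlap an E-box. This half-site starts 105 bases before the start site and the E-box 101 bases before it. Of 32851 RefSeq promoters of 300 bases (250 before and 50 after a start site), 16.3% held the half-site, 7.15% the E-box, 37.4% the NF-Y box and 35.7% the Sp1 box. These are matches of letters and not measured binding.

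Acat2 encodes cytosolic acetoacetyl-CoA thiolase, which joins 2 acetyl-CoA molecules (ENSMUSG00000023832; GRCm38 chr17:12942890-12960747, minus strand). The V-125 tumors had normalized counts of 928, 1345, 1506 and 1864, and the controls 950.0, 631, 678 and 725. Replicates 2 to 4 of V-125 lay above all controls, and V-125 replicate 1 lay just under control replicate 1. The means were 1411 ± 388 (SD, n = 4) and 746 ± 141 (SD, n = 4), a 1.89-fold difference (two-sided exact permutation test, p = 0.0571). In 39.1% of the 50-base words of its transcripts, Acat2 was identical to a transcript of another gene, chiefly Acat3, so reads from the 2 genes can be hard to assign.

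Hmgcs1 encodes HMG-CoA synthase, the cytosolic enzyme that makes HMG-CoA (ENSMUSG00000093930; GRCm38 chr13:119690379-119708260, plus strand). In normalized counts, Hmgcs1 stood at 786, 1487, 1032 and 1798 with V-125 and 762, 680, 1068 and 966 in controls. Only V-125 replicates 2 and 4 exceeded the highest control. The means were 1275 ± 453 (SD, n = 4) and 869 ± 179 (SD, n = 4), the smallest difference of the 8 at 1.47-fold (two-sided exact permutation test, p = 0.171). An annotated antisense gene, Gm48342, covers 557 bases of its exons (12.1%), and whether reads were counted by strand is not given in the sources used here.

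Hmgcs1 was the single gene among those matched whose promoter held the sterol regulatory letters TCACNCCAC, which 1.24% of all promoters held, and its 250 bases before the RefSeq start (GRCm38, chr13:119690101-119690350, plus strand) are shown for that reason.
Hmgcs1: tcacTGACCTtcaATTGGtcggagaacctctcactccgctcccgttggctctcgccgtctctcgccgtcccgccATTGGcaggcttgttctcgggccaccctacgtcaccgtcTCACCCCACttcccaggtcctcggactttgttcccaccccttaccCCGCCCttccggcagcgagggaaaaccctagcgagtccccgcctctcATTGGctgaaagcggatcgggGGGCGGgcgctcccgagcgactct
The element begins 137 bases before the start site, after a half-site and a pair of NF-Y boxes, and are followed by 2 Sp1 boxes with an NF-Y box between them. A further NF-Y box and a further Sp1 box lie after the start site. Promoter sequences from RefSeq (GRCm38.p6) matched 6 of the 8 genes, with 2 promoters for Pmvk. Fdps and Fdft1 were not matched. NF-Y boxes were found for 5 of these 6 genes, all but Acat2, and Sp1 boxes for 5, all but Pmvk. The half-site occurred for 2 genes, Insig1 and Hmgcs1, and direct repeats of it with 1 or 4 spacer bases, which 0.0396% and 0.0152% of all promoters held, for 0.

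Pmvk encodes phosphomevalonate kinase, which adds the second phosphate to mevalonate (ENSMUSG00000027952; GRCm38 chr3:89454541-89469013, plus strand). Its normalized counts were 702, 864, 894 and 1273 with V-125 and 927, 490.1, 473 and 487 in controls. Control replicates 2 to 4 lay close together and below every V-125 tumor, and control replicate 1 lay above 3 of the 4 V-125 tumors. The means were 933 ± 242 (SD, n = 4) and 594 ± 222 (SD, n = 4), a 1.57-fold difference (two-sided exact permutation test, p = 0.114). Without control replicate 1 the groups did not overlap and the fitted log2 fold change was 0.95 in place of 0.65.

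Mvd encodes mevalonate diphosphate decarboxylase, the enzyme that makes isopentenyl diphosphate (ENSMUSG00000006517; GRCm38 chr8:122433601-122443422, minus strand). For Mvd the normalized counts were 305, 634, 601 and 877 with V-125 and 335, 271, 473 and 376 in controls. V-125 replicates 2 to 4 lay above all controls, and replicate 1 lay below 3 of the 4. The means were 604 ± 234 (SD, n = 4) and 364 ± 84.8 (SD, n = 4), a 1.66-fold difference (two-sided exact permutation test, p = 0.114). No 50-base word of the Pmvk or Mvd transcripts occurred in a transcript of another gene.

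Idi1 encodes isopentenyl diphosphate isomerase, which supplies the allylic partner for chain building (ENSMUSG00000058258; GRCm38 chr13:8885501-8892451, plus strand). Idi1 had normalized counts of 309.6, 845, 609.7 and 1034 with V-125 and 249, 195, 269 and 465 in controls. V-125 replicates 2 to 4 lay above all controls, and V-125 replicate 1 lay between control replicates 3 and 4. The means were 699.7 ± 313 (SD, n = 4) and 295 ± 118 (SD, n = 4), a 2.37-fold difference (two-sided exact permutation test, p = 0.0571).

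Fdft1 encodes squalene synthase, the first enzyme committed to sterols (ENSMUSG00000021273; GRCm38 chr14:63145150-63179578, minus strand). In normalized counts, Fdft1 stood at 1242, 912, 852 and 1117 with V-125 and 780.5, 591, 748 and 499 in controls. Every V-125 tumor lay above every control tumor, and V-125 replicate 1 was here the highest. The means were 1031 ± 181 (SD, n = 4) and 655 ± 133 (SD, n = 4), a 1.57-fold difference (two-sided exact permutation test, p = 0.0286). Its coefficient of variation with V-125, 17.5%, was the lowest of the 8. The opposite-strand gene Ctsb covers 774 bases of its exons (18.3%).

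Fdps encodes farnesyl diphosphate synthase (ENSMUSG00000059743; GRCm38 chr3:89093588-89101959, minus strand) and had very few reads, between 11 and 73 per tumor. The normalized counts of Fdps were 22.5, 53.2, 52.6 and 77.2 with V-125 and 12.7, 12.7, 41.5 and 25.6 in controls. V-125 replicates 2 to 4 lay above all controls, and replicate 1 lay within their range. The means were 51.4 ± 22.4 (SD, n = 4) and 23.1 ± 13.7 (SD, n = 4), a 2.22-fold difference (two-sided exact permutation test, p = 0.0857). Of the 50-base words in its longest coding transcript (1382 bases), 86.4% also occurred in transcripts of other genes. These were 8 genes, namely 7 processed pseudogenes and Gm43738, a same-strand gene that covers 1124 bases of the Fdps exons (26.7%).

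One of these pseudogenes, Gm3571 (GRCm38 chr10:93778660-93779719, 1060 bases), is itself listed for V-125. It aligned to Fdps with 98.9% identity, and their longest identical run was 188 bases. Normalized counts of Gm3571 were 78.7, 135, 107 and 169 with V-125 and 47.3, 28.9, 124.6 and 68.3 in controls, above those of Fdps in all 8 tumors. Its means differed 1.82-fold (two-sided exact permutation test, p = 0.114). The stretch below, 100 bases of transcript from each gene, is shown because reads of this length from the 2 loci would differ at 1 base, printed in capitals. The Fdps stretch lies in GRCm38 chr3:89095413-89095634 on the minus strand and joins 2 coding exons, and the Gm3571 stretch lies in chr10:93778987-93779086 on the plus strand.
Fdps: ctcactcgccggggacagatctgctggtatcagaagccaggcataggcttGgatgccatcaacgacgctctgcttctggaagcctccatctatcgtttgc
Gm3571: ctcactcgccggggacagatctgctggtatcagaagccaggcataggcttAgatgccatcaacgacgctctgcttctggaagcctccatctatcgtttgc
How the counting treated reads that map to several places is not given in the sources used here, so the low level of Fdps and its fold difference are uncertain. Bases that Fdps shares with Gm43738 are the same stretch of genome, so there the question is assignment between overlapping genes. Over all annotated transcripts, the share of 50-base words found in transcripts of other genes was 26.2% for Fdps and 26.5% for Fdft1. It was 25.3% for Idi1, 11.6% for Hmgcs1 and 2.17% for Insig1. In the longest coding transcripts, the measure that gave 86.4% for Fdps, it was 30.7% (Fdft1), 30.5% (Idi1), 13.6% (Hmgcs1) and 2.49% (Insig1). Shares over all transcripts include opposite-strand genes of the locus, namely Ctsb for Fdft1 (17.2%), Gm48342 for Hmgcs1 (10.0%) and Gm48574 for Idi1 (7.62%). The Insig1 pseudogene Gm37784 is also listed, at 5.1, 20.9, 34.8 and 43.4 with V-125 and 4.6, 5.8, 4.0 and 13.7 in controls.

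**Figure D2:**
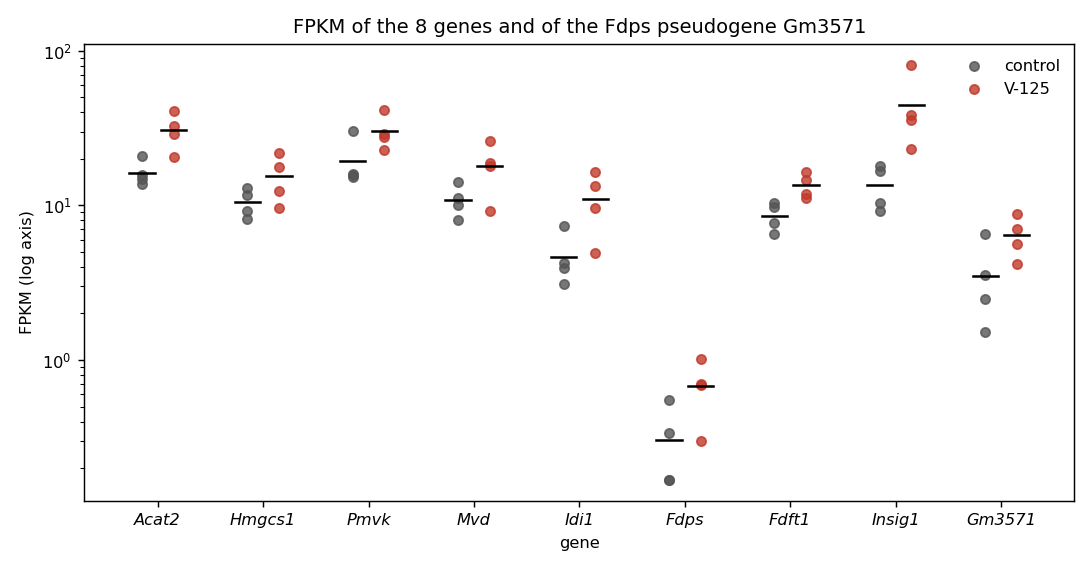
FPKM of the 8 genes and of the Fdps pseudogene Gm3571 (y axis, log scale) in 4 control tumors (grey points) and 4 V-125-treated tumors (red points), with black lines at the group means. Fdps lies between 0.167 and 1.02 FPKM, under the other 7 genes and under Gm3571 in every tumor.

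On the FPKM scale, which accounts for gene length, the order of the levels in control tumors was Pmvk (19.3 ± 7.26, SD, n = 4), Acat2 (16.3 ± 3.13), Insig1 (13.5 ± 4.37), Mvd (10.9 ± 2.52), Hmgcs1 (10.5 ± 2.15), Fdft1 (8.60 ± 1.76), Idi1 (4.66 ± 1.86) and Fdps (0.305 ± 0.180). Neighbours from Pmvk down to Fdft1 differed by less than the larger of their SDs, while Fdft1 and Idi1, and Idi1 and Fdps, differed by more. With V-125 the order was Insig1 (44.6 ± 25.2), Acat2 (30.7 ± 8.37), Pmvk (30.2 ± 7.76), Mvd (17.98 ± 6.94), Hmgcs1 (15.4 ± 5.43), Fdft1 (13.5 ± 2.46), Idi1 (11.0 ± 4.91) and Fdps (0.676 ± 0.294). Here the steps from Pmvk to Mvd and from Idi1 to Fdps exceeded the larger SD, and the other neighbours did not. By mean, Insig1 stood below Pmvk and Acat2 in the control group and at the top of the order with V-125, although in control replicates 3 and 4 it lay above both.

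The V-125 tumors were unequal in a way that most of the 8 genes shared. V-125 replicate 1 was the lowest of its group for 7 of the 8 genes and lay within the control range for 6, with a median of 1.12 times the control mean. V-125 replicate 4 was the highest for 7 of the 8 and above all controls for all 8, with a median of 2.45 times the control mean. V-125 replicates 2 and 3 lay between, at medians of 1.77 and 1.84, and were above all controls for 7 and 6 genes. Fdft1 was the exception, with replicate 1 the highest of its group. Summed over the 8 genes, FPKM came to 107, 158, 149 and 243 with V-125, against 95.0, 66.1, 89.6 and 85.2 in the controls.

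Without V-125 replicate 1, the groups did not overlap for 6 genes (Acat2, Mvd, Idi1, Fdps, Fdft1 and Insig1), against 26.7% of all listed genes under the same omission. Without control replicate 1 they did not overlap for 4 genes, Acat2 and Pmvk in addition to Insig1 and Fdft1, against 24.0% of all listed genes. The labels and the study's methods give no feature that sets V-125 replicate 1 apart, and its reads counted on genes (17487189) lay within the range of the other tumors.

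**Figure D3:**
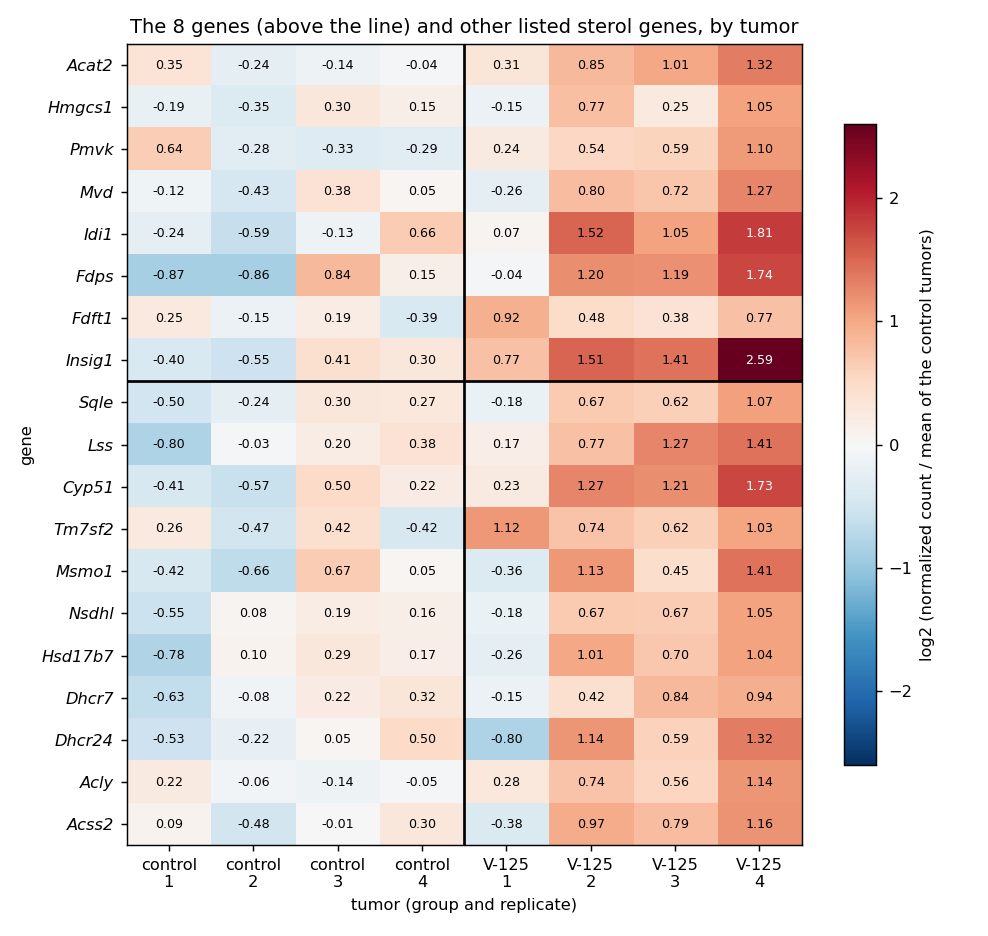
Log2 of each tumor's normalized count over the mean of the 4 control tumors, for the 8 genes (above the horizontal line) and for other listed genes of sterol synthesis and acetyl-CoA supply (below it), with control tumors left and V-125-treated tumors right of the vertical line. Red is above and blue below the control mean; Insig1 reaches 2.59 in V-125 replicate 4, while V-125 replicate 1 lies between -0.80 and 0.31 in all rows but Fdft1, Insig1 and Tm7sf2.

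The test across genes used the counts of the listed genes that passed a filter on low counts (1333, all 8 genes among them), with Benjamini-Hochberg adjustment over the 15310 genes the authors had tested. With edgeR's quasi-likelihood test, 0% of the fitted genes and none of the 8 had an adjusted p-value under 0.05. At an unadjusted p-value under 0.05, 71.5% of the fitted genes (953) and 6 of the 8 were found. The exceptions were Fdps (edgeR p = 0.0599) and Hmgcs1 (edgeR p = 0.0657), and the table itself holds only genes that passed such a threshold in the authors' comparison. The adjusted p-values of the 8 ran from 0.456 for Insig1 to 0.863 for Hmgcs1. The log2 fold changes were 1.72 for Insig1 (SE 0.38), 1.25 for Idi1 (SE 0.39), 1.13 for Fdps (SE 0.53), 0.92 for Acat2 (SE 0.23), 0.73 for Mvd (SE 0.31), 0.65 for Fdft1 (SE 0.20), 0.65 for Pmvk (SE 0.27) and 0.55 for Hmgcs1 (SE 0.27). Their median was 0.82, against 0.36 over all fitted genes, which include genes lower with V-125. Against only the listed genes higher in mean with V-125, the 8 did not stand out (median ratio 1.78-fold against 1.81-fold).

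The call depended on the tool and on the number of tests. Limma-voom also called 0 genes (885 at an unadjusted p-value under 0.05). The study, which names limma, reported V-125 genes under an adjusted p-value of 0.05, and the fits here held only listed genes. DESeq2 called 9.30% of the fitted genes (124, 71 of them higher with V-125), among them Insig1 (adjusted p = 0.00567) and Acat2 (adjusted p = 0.0414). Adjusting the edgeR p-values over the 1333 listed genes alone, which does not count the genes left off the table, called 9.00% (120), again with Insig1 (adjusted p = 0.0397) and Acat2 (adjusted p = 0.0425) among the 8 genes.

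**Figure D4:**
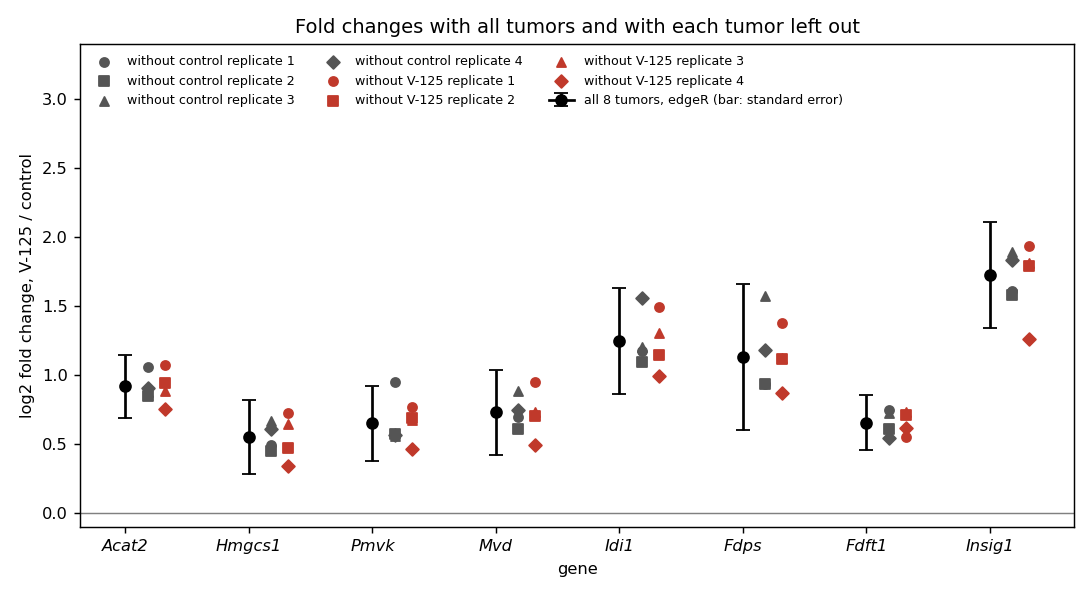
Log2 fold change of V-125 over control (y axis) for each of the 8 genes from edgeR, with all 8 tumors (black, bar = standard error) and after omission of 1 tumor at a time (grey for a control, red for a V-125 tumor, marker shape for the replicate number). All values lie above 0, from 0.34 for Hmgcs1 without V-125 replicate 4 to 1.94 for Insig1 without V-125 replicate 1.

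For bexarotene the authors' group means allowed a ratio but no test. The mean was over 1.5 times the control mean for all 5 listed genes, against 31.7% of the 1784 genes in that table. Insig1 was again the highest, at 1979 with bexarotene and 749.7 in control tumors (2.64-fold). The ratios were 2.18 for Idi1 (639 over 293), 2.11 for Fdps (48.6 over 23.0), 1.78 for Acat2 (1320 over 742) and 1.65 for Hmgcs1 (1428 over 864). With V-125 the same genes stood at 3.30, 2.37, 2.22, 1.89 and 1.47. The ratio was thus larger with V-125 for 4 of these genes and larger with bexarotene for Hmgcs1, and in the absence of per-tumor bexarotene values these differences were not tested. The doses and duration were matched, but both comparisons share the same 4 control tumors, whose means differed between the tables by a factor of 0.993 to 0.994. Pmvk, Mvd and Fdft1 are not in the bexarotene table used here, so no ratio is given for them, and this does not show that the agonists differ in them.

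Other genes of the pathway were taken from lists by role. Acat1, Mvk and Idi2, 3 further genes of the steps to farnesyl diphosphate, are not listed in either table. From 15 genes of the branches that leave farnesyl diphosphate for geranylgeranyl, dolichol, ubiquinone and protein prenylation, 0 are listed in either table. Downstream of squalene, 9 of 12 sterol enzymes are listed for V-125, all higher in mean by 1.49- to 2.30-fold (median 1.70), and 8 for bexarotene, all higher by 1.43- to 2.06-fold, with 7 in both. None of the 9 had an adjusted p-value under 0.05 in edgeR, and the groups did not overlap for 1, Tm7sf2. Cyp51, lanosterol demethylase, had the largest ratio of these with V-125 (2.30-fold, log2 fold change 1.20, SE 0.34).

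Of 14 genes of sterol sensing and SREBP processing besides Insig1, Rnf145 alone is listed, for V-125, at 1.42-fold. Rnf145 encodes a sterol-sensing ubiquitin ligase of the endoplasmic reticulum. Among 9 further SREBP2 target genes, Fads2 (a fatty acid desaturase, 1.74-fold) and Lpin1 (a phosphatidate phosphatase, 1.54-fold) are in the V-125 table, and the bexarotene table holds 0 of the 9. For acetyl-CoA supply, 2 of 7 genes are listed for V-125, Acly (ATP citrate lyase, 1.64-fold, groups not overlapping) and Acss2 (acetyl-CoA synthetase, 1.67-fold), and for bexarotene Mpc2 (a mitochondrial pyruvate carrier subunit), which was lower at 0.685 times control. None of the genes listed for V-125 in this paragraph had an adjusted p-value under 0.05 in edgeR.

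Genes that varied much like the 8 across the V-125 and control tumors, by the correlation of deviations from the group means with the mean deviation of the 8 over 8 tumors, were Cyp51 (r = 0.94), Msmo1 (r = 0.93), Creld2 (r = 0.92) and Acss2 (r = 0.91), among 1137 genes ranked. Cyp51 and Msmo1 encode enzymes of sterol synthesis. The points share their libraries and size factors, and V-125 replicates 1 and 4 are the extremes.

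Markers of cell types were checked in the same tables. Of 11 mammary epithelial markers, 3 are listed for V-125 and all were lower in mean, Wap at 0.207, Epcam at 0.758 and Cdh1 at 0.757 times control. Epcam ran from 28485 to 34948 with V-125 against 37941 to 53468 in controls. The groups overlapped for Cdh1 (4565 to 6523 against 5436 to 9150) and for Wap (45.5 to 142 against 33.3 to 784). The lowest Wap value was that of a control tumor. The summed level of the 3, most of it Epcam, was 34124 to 41195 with V-125 against 43555 to 63395 in controls. Of 9 adipocyte markers, Lipe alone is listed for V-125 (1.61-fold higher, summed level 454 to 608 against 248 to 400.1), and Adipoq, Lep and Plin1 are not listed. Of 8 leukocyte markers, Itgam alone is listed (0.550 times control, 30.7 to 60.6 against 65.5 to 89.0). Among 8 endothelial and stromal markers, Kdr was higher in mean (1.80-fold) and Acta2, smooth muscle actin, lower (0.378 times control), with a summed level of 864 to 1148 against 926 to 1202. V-125 replicate 1, the tumor in which most of the 8 genes were low, stood apart for several markers. Acta2 was at 609, against 88.8 to 199 in the other V-125 tumors and 498 to 951 in controls. This tumor also lay outside the range of the other V-125 tumors for Lipe (608 against 454 to 501) and Cdh1 (4565 against 5594 to 6523). The same held for Kdr (539 against 775 to 835) and Mcm2 (849 against 1103 to 1590). For Epcam, Wap and Itgam it lay within that range. Without V-125 replicate 1, an omission chosen after the values were seen, the Acta2 ratio was 0.208. Across the 8 tumors, the deviations of Acta2 from the group means ran against the mean deviation of the 8 genes (r = -0.85, n = 8). The same r was 0.83 for the proliferation gene Mcm2, 0.38 for Kdr and 0.14 for Cdh1. It was -0.20 for Itgam, -0.27 for Epcam, -0.36 for Lipe and -0.49 for Wap. Of 8 proliferation genes, Mcm2 is listed, at 1.46-fold (849 to 1590.4 against 667 to 993). With bexarotene, 4 epithelial, 3 leukocyte and 1 stromal markers were lower in mean and the proliferation gene Mki67 (1.58-fold) was higher. The adipocyte markers Fabp4 (3.37-fold) and Plin4 (4.64-fold), the only 2 of the 9 listed for bexarotene, were also higher. No marker had an adjusted p-value under 0.05 in edgeR for V-125. Whether cell composition contributes to the differences in the 8 genes was not tested.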

How the data were processed

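Reads had been processed by the submitters, whose processing notes name STAR (2.6.1d), featureCounts (1.5.0-p3) and limma. The genome build, strand setting and treatment of multiply mapped reads are not given in the sources used here, and the coordinates of the 8 genes equal those of GENCODE M21 on GRCm38. For each of the 8 V-125 and control tumors the authors deposited the raw read count per gene, the normalized count (a signal, scaled by 1 size factor for each tumor) and FPKM. For bexarotene, the authors' deposited group means of normalized counts were used. The authors' own comparison values (log2 fold changes, p-values and adjusted p-values) were deposited beside these. The p-value columns served only to find the threshold of the lists and to infer the number of genes tested (15310 for V-125 and 18687 for bexarotene). Each is the most frequent value, given by 44.9% and 35.8% of the listed genes with an adjusted p-value under 1. The fold changes were not used.

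Counts of listed genes were fitted with edgeR (4.0.16, R 4.3.3; quasi-likelihood test after filterByExpr, the authors' size factors), with unlisted genes entering the Benjamini-Hochberg adjustment only by number. The spread was thus estimated from selected genes. DESeq2 (1.42.0), limma-voom (3.58.1), other scaling, no filter, adjustment over listed genes alone, the replicate block and leaving out each tumor were alternatives. The scripts were tested on simulated data. Exact permutation tests enumerated all 70 assignments of 8 tumors. Python 3.11.15, numpy 2.4.6, scipy 1.17.1 and pandas 2.3.3 were used. A pseudocount of 1 was added on log2 scales. The 8 genes and the gene lists were chosen with earlier results of these data known. The genes named are the 8, every listed gene of the pathway lists, and the 5 with the most similar variation among those with a mean normalized count of at least 50, and the pseudogenes Gm3571 and Gm37784 were named after their values were seen. Results for some single genes that these rules would name are left out. Groups came from the sample labels. The study states 4 mice per group, and p-values set the difference between the groups against the variation between these tumors.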

Additional observations from a re-analysis of the deposited data

Results flagged for a closer look

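Among the 16 sets of 4 tumors tested for a sample far from the others (8 genes in 2 groups), 1 was marked. For Pmvk, control replicate 1 had a normalized count of 927, while the other 3 controls lay between 473 and 490.1, and the gap took up 0.962 of the group's range. Chance marks about 1 in 20 such sets.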

How the results depend on the processing

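The log2 fold changes of the 8 genes stayed above 0 under every scaling, filter, tool and omission tried. These genes had been selected on a difference between the same tumors, so a change of sign was unlikely from the start. The number of the 8 with an adjusted p-value under 0.05 was 0 in edgeR and 2 both in DESeq2 and with adjustment over the listed genes alone (Insig1 and Acat2), and the number over all fitted genes moved from 0 to 124 and 120. Leaving out each tumor in turn gave 0 of the 8 throughout, and median log2 fold changes between 0.68 (without V-125 replicate 4) and 1.01 (without V-125 replicate 1). The number of genes without overlap ran from 2 to 6 under these omissions, with 6 reached without V-125 replicate 1 and 4 without control replicate 1, beside 26.7% and 24.0% of all listed genes. The latter are 424 and 382 genes, while 817 listed genes were higher in mean with V-125. Over all these omissions the share of listed genes lay between 24.0% and 27.1%. Tumors of 2 groups that carry 1 number came from different mice, and their deviations did not move together (r between -0.17 and 0.09 over genes), so the numbers were not treated as pairs. A fit with the replicate block called 0 of the 8, at a median log2 fold change of 0.79. The remaining alternatives, FPKM and CPM for the overlap, log2 values for the permutation tests and a pseudocount for the bexarotene ratios, kept the direction and the side of the threshold. Depth limits Fdps, with 11 to 73 reads per tumor, and the listed genes alone cannot show how many unlisted members of a pathway differed by less.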
